A study of Mus musculus with 12 samples.

Results

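The collagen genes described here are the protein-coding genes of the deposited table whose GENCODE M21 symbol is Col, a number, the letter a and a number. There were 44 of them among 43346 genes. By the structure of the collagen that each chain builds, 11 are fibrillar, 6 are basement membrane chains (type IV) and 27 belong to other types. RNA was measured by sequencing in 12 libraries of mouse embryonic stem cells, 3 in each of 4 groups. B6 cells have the strain C57BL/6J and D2 cells the strain DBA/2J. B6-13D2 cells are labelled B6.D2-(rs30079041-rs51756099)/Bakr, a congenic line with a D2 segment of chromosome 13 on the B6 background, and D2-13B6 cells are labelled D2.B6-(rs29224292-rs13469455)/Bakr, the reciprocal line with a B6 segment on the D2 background. The series' own design text gives rs51756099 as the end of the D2-13B6 segment, so that limit is uncertain. All groups grew in serum medium with LIF, the MEK inhibitor PD0325901 and the GSK3 inhibitor CHIR99021. Per the labels' protocol each strain is a single cell line sampled as 3 separate cultures, so strain and line cannot be told apart. The labels do not all match this: B6 replicate 3 carries another line name than the other B6 libraries, and the titles of the D2 libraries name another line than their source and cell line fields, so which D2 line was sampled is uncertain. The titles call the libraries technical replicates, so the p-values measure only the spread between these cultures.

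A collagen molecule is a triple helix of 3 chains, each with long runs of regularly spaced glycines. The chains are hydroxylated and folded in the endoplasmic reticulum with the help of prolyl hydroxylases and the chaperone Serpinh1 (Hsp47), exported, trimmed by propeptidases, and crosslinked outside the cell by lysyl oxidases. Fibrillar collagens form the banded fibrils of bone, skin, tendon and cartilage, type IV collagens form the network of basement membranes, and the remaining types decorate fibrils, link them to cells or build other networks. In the early mouse embryo type IV collagen is a product of the extraembryonic endoderm, whereas high levels of type I collagen are known from fibroblasts and bone-forming cells.

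Libraries held 22184196 to 36411799 expected counts. The 10 pluripotent stem cell markers were detected in every group, with a summed level of 3647 to 6399 CPM per library. CPM are counts scaled to a common library total with TMM factors. A gene was called where edgeR's quasi-likelihood test, adjusted by the Benjamini-Hochberg method over all 17148 genes tested, gave a p under 0.05. Many genes were called in every comparison, 60.0% for D2 relative to B6, 58.3% for B6-13D2 relative to B6 and 57.3% for D2-13B6 relative to D2, so counts of collagen genes are given beside these shares. The comparisons share groups: B6 enters the first and the second, and D2 the first and the third. Of the 44 collagen genes 40 passed the filter on low counts, with 11 of 11 fibrillar, 6 of 6 type IV and 23 of 27 other genes. Col25a1, Col6a6, Col9a1 and Col19a1 did not pass and had at most 16 counts in any library. Of the 40, 31 reached the filter's minimum in all libraries of all 4 groups, and 9 passed through fewer groups or through scattered libraries: Col24a1, Col4a3, Col4a4, Col6a4, Col6a5, Col8a2, Col15a1, Col23a1 and Col28a1. Since such a gene can enter the test through the groups where it is high, counts are also given for the 31, a division chosen after seeing the data. The 27 genes with a mean of at least 2 CPM over the 12 libraries are given per library.

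Collagen transcripts took the largest share of the RNA in D2 and the smallest in B6-13D2. The 44 genes together held 1.42%, 1.3% and 1.3% of the expected counts in the B6 libraries, 2.4%, 2.28% and 2.04% in D2, 0.492%, 0.486% and 0.486% in B6-13D2, and 1.24%, 1.23% and 1.19% in D2-13B6. The groups did not overlap in this share. The means were 2.24% ± 0.183 (SD, n = 3) in D2, 1.34% ± 0.0693 in B6, 1.22% ± 0.0265 in D2-13B6 and 0.488% ± 0.00346 in B6-13D2. One gene, Col1a1, made up 42.9% to 46.6% of the collagen counts in every library. By count it ranked 2 or 3 among all genes of the table in each B6, D2 and D2-13B6 library, and 23 or 24 in each B6-13D2 library. The fibrillar genes held 1.64% to 1.95% of all counts in D2 and 0.371% to 0.378% in B6-13D2, and the type IV genes 0.101% to 0.119% and 0.0234% to 0.0242%.

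The share of collagen counts moved together with marker genes of fibroblasts and mesenchyme. All 12 genes of that list, which holds no collagen gene, were detected in every group. Their summed level was 1042 to 1125 CPM in the B6 libraries, 1592 to 1715 in D2, 329.6 to 331 in B6-13D2 and 829 to 836 in D2-13B6. Relative to the D2 mean these sums were 64.8% in B6, 19.7% in B6-13D2 and 49.8% in D2-13B6. Tagln, an actin-binding protein of smooth muscle and fibroblasts, had the highest CPM of the list, 498 CPM ± 17.3 in B6, 697 CPM ± 39.4 in D2, 139 CPM ± 4.06 in B6-13D2 and 329 CPM ± 5.83 in D2-13B6. Thy1, a surface protein of fibroblasts and neurons, had 167 CPM ± 4.95 in B6, 257 CPM ± 14 in D2, 60.5 CPM ± 0.354 in B6-13D2 and 132 CPM ± 4.02 in D2-13B6. Prrx1, a transcription factor of limb and craniofacial mesenchyme, had 159 CPM ± 4.68 in B6, 235 CPM ± 8.1 in D2, 49 CPM ± 1.3 in B6-13D2 and 118 CPM ± 1.32 in D2-13B6. Cdh11, a cadherin of mesenchyme, and Lum, a proteoglycan that binds collagen fibrils, moved most beside Tagln and Prrx1, with log2 fold changes of -2.06 and -1.79 for B6-13D2 relative to B6 (adjusted p 1.7e-15 and 2.62e-06). Of the 12 markers 12 were higher in D2 than in B6 (29.8% of all tested genes), 12 were lower in B6-13D2 than in B6 (32.9%), and 11 were lower in D2-13B6 than in D2 (29.7%). The primitive and parietal endoderm list, which marks a source of type IV collagen, summed to 69.9 to 73.4 CPM in B6, 99.8 to 105 in D2, 28.9 to 31.2 in B6-13D2 and 71.4 to 75.1 in D2-13B6. Of its 11 genes 10 were tested, with 6 higher and 1 lower in D2 than in B6 (29.8% and 30.3% of all tested genes), 7 lower in B6-13D2 than in B6 (32.9%), and 3 higher and 4 lower in D2-13B6 than in D2, near the shares over all genes (27.6% and 29.7%). Plat, the tissue plasminogen activator, had 21 CPM ± 1.59 in B6, 32.8 CPM ± 1.71 in D2, 7.92 CPM ± 0.295 in B6-13D2 and 22.3 CPM ± 1.13 in D2-13B6. Dab2, an endocytic adaptor, had 21.7 CPM ± 1.6 in B6, 29.7 CPM ± 1.28 in D2, 7.92 CPM ± 0.193 in B6-13D2 and 21.9 CPM ± 0.732 in D2-13B6. Thbd, thrombomodulin, had 15.1 CPM ± 0.17 in B6, 22.6 CPM ± 2.46 in D2, 5.6 CPM ± 0.567 in B6-13D2 and 11.7 CPM ± 0.843 in D2-13B6. These 3 had the highest CPM of the list and were highest in D2 and lowest in B6-13D2, and so were the transcription factor Gata6 and the endocytic receptor Cubn, with 3.46 and 3.18 CPM in D2 and 0.838 and 0.612 CPM in B6-13D2. Other genes of the list had other extremes. Gata4, a transcription factor, had 3.29 CPM ± 0.852 in B6, 1.54 CPM ± 0.452 in D2, 2.59 CPM ± 0.18 in B6-13D2 and 2.48 CPM ± 0.344 in D2-13B6, lowest in D2. Pdgfra, a receptor kinase of primitive endoderm, and Amn and Sox17 were highest in D2-13B6, and Sox7 was highest in B6-13D2. The transcription factors Foxa2, Sox7 and Sox17 had the lowest means, 0.133, 0.564 and 0.739 CPM over the 12 libraries. The summed level of the 10 pluripotent markers ran from 3647 to 3726 CPM in D2, 4487 to 4545 in D2-13B6, 5235 to 5590.2 in B6 and 6117 to 6399 in B6-13D2. Of the 10 genes 8 were lower and 1 higher in D2 than in B6 (30.3% and 29.8% of all tested genes), 9 higher and 1 lower in B6-13D2 than in B6 (25.4% and 32.9%), and 7 higher and 1 lower in D2-13B6 than in D2 (27.6% and 29.7%). The exceptions were Utf1, higher in D2 than in B6 and lower in D2-13B6 than in D2 (log2 fold changes 0.58 and -0.16), and Klf4, lower in B6-13D2 than in B6 (-0.38). The 5 endothelial markers were uneven: Cdh5 and Emcn had at most 5 and 2 counts in any library, whereas Tek, Kdr and Plvap reached 586, 181 and 71 counts. Tek, a receptor kinase, had 24.6 CPM ± 0.455 in B6, 4.36 CPM ± 0.863 in D2, 10.9 CPM ± 1.77 in B6-13D2 and 9.62 CPM ± 0.158 in D2-13B6. Kdr, a receptor of vascular endothelial growth factor, had 2.6 CPM ± 0.348 in B6, 4.63 CPM ± 0.383 in D2, 0.618 CPM ± 0.172 in B6-13D2 and 4.44 CPM ± 0.7 in D2-13B6, and Plvap had 1.29 CPM ± 0.12 in B6, 0.47 CPM ± 0.0987 in D2, 2.05 CPM ± 0.365 in B6-13D2 and 0.342 CPM ± 0.119 in D2-13B6. The 6 trophectoderm markers summed to 27.5 to 86.1 CPM, highest in B6-13D2, a sum carried by Tfap2c with 41 CPM ± 3.05 in B6, 31.6 CPM ± 0.738 in D2, 66 CPM ± 2.09 in B6-13D2 and 11.8 CPM ± 0.247 in D2-13B6 and Eomes with 10.7 CPM ± 1.48 in B6, 5.38 CPM ± 0.327 in D2, 14.2 CPM ± 1.29 in B6-13D2 and 4.16 CPM ± 0.269 in D2-13B6. The other tested genes of that list, Cdx2, Gata3 and Hand1, had their lowest means in B6-13D2, at 0.898, 2.72 and 0.129 CPM. The part of these markers in the collagen differences was not tested, and in bulk RNA fewer cells of a type and less RNA per cell cannot be told apart. The growth protocol in the labels lists the medium and names no feeder layer.

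**Figure D1:**
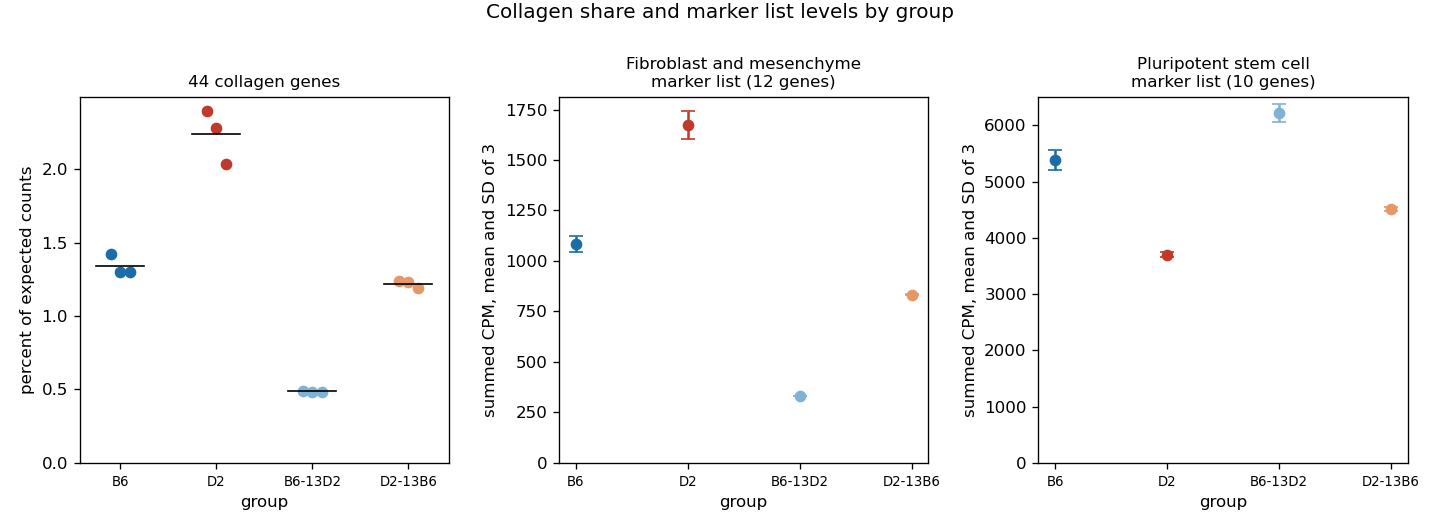
Left, the percent of expected counts held by the 44 collagen genes in each library (points; the line is the group mean). Middle and right, the summed CPM of the fibroblast and mesenchyme list (12 genes) and of the pluripotent stem cell list (10 genes), as the mean and SD of 3 libraries per group. Collagen share and fibroblast markers are highest in D2 (2.24% and 1673 CPM) and lowest in B6-13D2 (0.488% and 330.3 CPM), and the pluripotent list is highest in B6-13D2 (6223 CPM).

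The comparison of D2 with B6 asks how the parental lines differ. Most collagen genes were higher in D2: of 40 tested, 27 were higher and 5 lower, against 29.8% of all tested genes higher and 30.3% lower. Of the 31 at the minimum in all groups 23 were higher and 5 lower, against 31.4% and 33.5% of all such genes. The fibrillar genes gave 10 higher and 0 lower of 11, the type IV genes 5 and 0 of 6, and the other types 12 and 5 of 23. The fibrillar count holds Col24a1 (log2 fold change 1.02, SE 0.403, adjusted p 0.0365), which lost its call in 7 alternatives, among them DESeq2, no filter on low counts and without any 1 B6 library, where its log2 fold change was 0.91 to 1.18. The type IV count holds Col4a4 (log2 fold change 1.28, SE 0.532, adjusted p 0.0459), which lost its call in 11 alternatives, among them DESeq2, no filter and without B6 replicate 1, B6 replicate 3 or D2 replicate 1, where its log2 fold change was 0.96 to 1.35. Of the other types Col13a1, called lower (log2 fold change -0.72), lost its call in 4 alternatives. There it was at -0.66 to -0.71, or at -0.46 without D2 replicate 2. Col6a4, called higher, lost its call without D2 replicate 2, at 0.94. Col24a1, Col6a4 and Col6a5 reached the filter's minimum in all libraries of 2 groups only. The median log2 fold change of the 40 was 0.64, against 0.012 over all tested genes. The differences were moderate, and 7 of the 40 were called and moved by at least 1 on the log2 scale, against 11.3% of all genes.

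The comparison of B6-13D2 with B6 places the D2 segment on the B6 background. Collagen genes fell in B6-13D2: 27 of 40 were lower and 2 higher, against 32.9% and 25.4% of all tested genes. Of the 31 at the minimum in all groups 23 were lower and 2 higher, against 36% and 28.4% of all such genes. The fibrillar genes gave 9 lower and 0 higher, the type IV genes 5 and 0, and the other types 13 and 2. Of those 13, the calls of Col14a1, Col15a1, Col20a1, Col8a2 and Col28a1 had an adjusted p of 0.0213 to 0.0350. These calls were lost in 3 to 6 alternatives each, with log2 fold changes of -0.57 to -1.71 there, all below 0. The type IV count holds Col4a3, which had 10, 6 and 18 counts in the B6 libraries and 3, 4 and 2 in B6-13D2. Col4a3 did not reach the filter's minimum in all libraries of any group. The median log2 fold change was -1.38, against -0.035 over all tested genes, and 25 of the 40 were called and moved by at least 1 on the log2 scale, against 14.5% of all genes. For most members B6-13D2 was the lowest of the 4 groups and D2 the highest, with counts given below.

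The comparison of D2-13B6 with D2 places the B6 segment on the D2 background. Collagen genes fell here too: 22 of 40 were lower and 7 higher, against 29.7% and 27.6% of all tested genes. Of the 31 at the minimum in all groups 20 were lower and 6 higher, against 33.1% and 30.0% of all such genes. The fibrillar genes gave 8 lower and 1 higher, the type IV genes 6 and 0, and the other types 8 and 6 of 23, near the shares over all genes. Of these 6, Col20a1 (log2 fold change 0.78, SE 0.312, adjusted p 0.0403) lost its call in 7 alternatives, among them DESeq2 and without any 1 D2 library, with log2 fold changes of 0.48 to 0.84. Type IV calls include Col4a3 (log2 fold change -1.15, SE 0.481, adjusted p 0.0499) and Col4a4 (log2 fold change -1.28, SE 0.493, adjusted p 0.0341). These calls rest on 2 to 20 counts per library. Col4a3 lost its call in 12 alternatives, at -0.76 to -1.31, and Col4a4 in 5, at -1.01 to -1.29. Both lost it with DESeq2, without a filter and without D2-13B6 replicate 2 or 3, which leaves 4 of 6. The median log2 fold change was -0.76, against 0 over all tested genes, and 12 of 40 were called and moved by at least 1, against 8.96% of all genes. Fibrillar and type IV genes were thus mostly below the parental line of the same background in both congenic lines. The mean of the congenic lines was called lower than that of the parental lines in 26 of 40 collagen genes and higher in 5. Of all tested genes 33.4% and 31.1% were so called, 64.5% in either direction. The median log2 difference of the 40 was -1.08. Column names of the 6 congenic libraries start with a digit that those of the parental libraries do not have. A batch behind it, if any, cannot be told apart from that difference.

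The 4 groups had a common order in many members. In 20 of 40 collagen genes the mean level fell from D2 to B6 to D2-13B6 to B6-13D2, an order that 14.8% of all tested genes had. In 13 of 40 each neighbouring pair in this order was also called, against 5.73% of all genes, and in 14 of 40 the libraries of the 4 groups did not overlap, against 6.60%. In 20 of 40 every D2 library stood above and every B6-13D2 library below all other libraries, against 13.6%. In a further 7 genes D2-13B6 stood above B6 with D2 still first and B6-13D2 last, so that 27 of 40 were highest in D2 and lowest in B6-13D2, against 23.8% of all genes. Of the 31 genes at the filter's minimum in all groups 17 had the common order, 13 with each neighbouring pair called, and 22 were highest in D2 and lowest in B6-13D2, against 15.7%, 6.94% and 24.3% of all such genes. With RLE size factors in place of TMM, 12 collagen genes had the order with every neighbour called, against 4.94% of all genes. The median of all genes in D2-13B6 against B6 moved from -0.06 to -0.005.

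**Figure D2:**
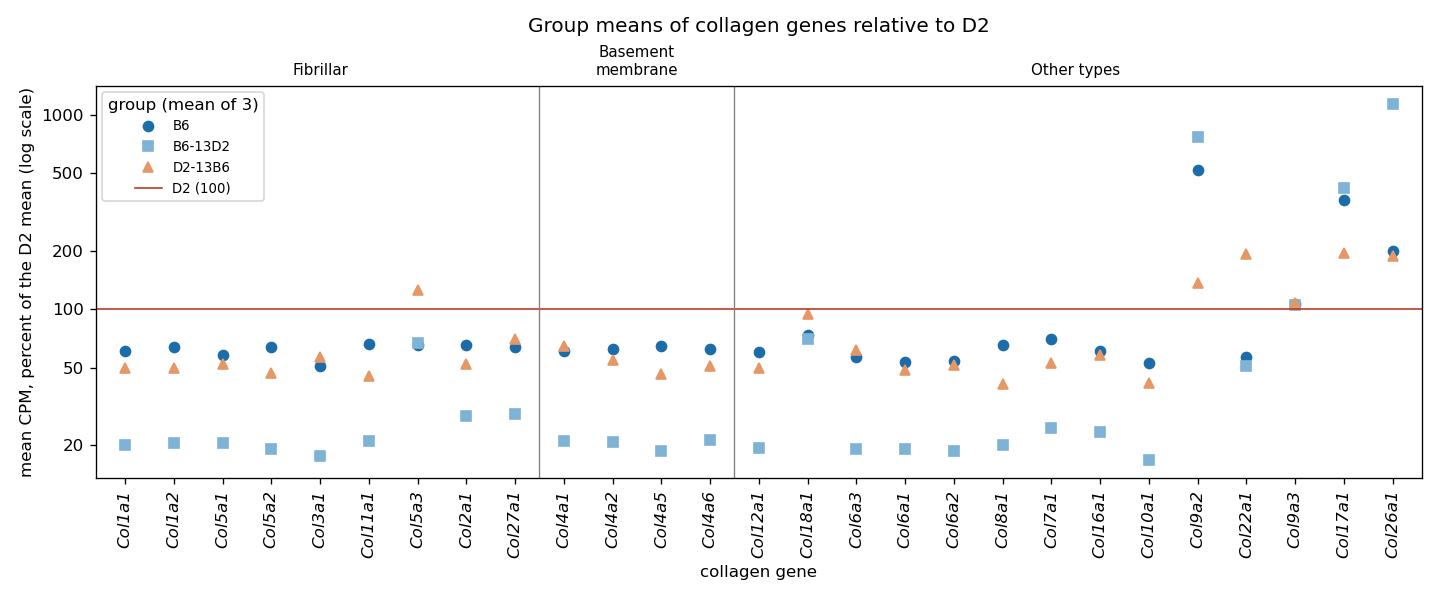
Mean CPM of each collagen gene with at least 2 CPM, as a percent of its D2 mean (log axis), for B6, B6-13D2 and D2-13B6 (means of 3 libraries; the line marks D2). The 16 genes with the common order lie at 52.7% to 70.7% in B6, 41.4% to 58.1% in D2-13B6 and 16.7% to 28.2% in B6-13D2. Col9a2, Col9a3, Col17a1 and Col26a1 lie above 100% in all 3 of these groups, with Col9a3 at 105% to 108%.

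Type I collagen, the main fibril of bone, skin and tendon, is built from the products of Col1a1 and Col1a2, and both had the common order. Col1a1 (ENSMUSG00000001506, chromosome 11, 94936224 to 94953042) had 6829.5, 6248 and 6207 CPM in B6, 11311, 10657 and 9485 in D2, 2135, 2079.9 and 2063 in B6-13D2 and 5308, 5257 and 5116 in D2-13B6. The D2 libraries were the highest and the B6-13D2 libraries the lowest, and no groups overlapped. Against B6, Col1a1 was higher in D2 (log2 fold change 0.71, SE 0.0497, adjusted p 1.58e-09) and lower in B6-13D2 (log2 fold change -1.62, SE 0.0508, adjusted p 1.41e-14). Against D2 it was lower in D2-13B6 (log2 fold change -1.0, SE 0.0499, adjusted p 1.5e-11). Chromosome 11, which carries Col1a1, had a median log2 fold change of 0.39 over 1386 genes in D2-13B6 against D2. The other autosomes had -0.026, so the fall of Col1a1 went against the shift of its chromosome. Col23a1, P4hb, Fkbp10, P3h4, Mrc2 and Sparc, named below, lie on chromosome 11 too. Col1a2 (ENSMUSG00000029661, chromosome 6, 4504814 to 4541544) had 2727, 2518 and 2605 CPM in B6, 4441, 4178 and 3615 in D2, 827, 856 and 817 in B6-13D2 and 2094, 2048 and 1975 in D2-13B6. Its groups did not overlap either. The log2 fold changes of Col1a2 were 0.64 (SE 0.0543) for D2 relative to B6, -1.65 (SE 0.0557) for B6-13D2 relative to B6 and -1.0 (SE 0.0546) for D2-13B6 relative to D2, with adjusted p of 1.73e-08, 3.69e-14 and 4.96e-11. The ratio of Col1a1 to Col1a2 counts stayed between 2.38 and 2.62 over the 12 libraries, while each gene varied 5.48-fold and 5.43-fold. Scaled by the length of its exons, Col1a1 had a mean level of 923 CPM per kilobase and Col1a2 192.

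Types III and V accompany type I in soft tissues, and Col3a1, Col5a1 and Col5a2 had D2 and B6-13D2 as the extremes. Col3a1 encodes the single chain of type III collagen of skin and vessels, and Col3a1 (ENSMUSG00000026043, chromosome 1, 45311538 to 45349706) had 350.2, 323 and 333 CPM in B6, 707, 674 and 594 in D2, 118, 114 and 115 in B6-13D2 and 378, 378 and 364 in D2-13B6. Here D2-13B6 lay above B6, by a log2 difference of 0.16 (SE 0.05, adjusted p 0.0125), the reverse of Col1a1 and Col1a2. D2 was 0.97 above B6 (SE 0.0502, adjusted p 2.66e-11), and B6-13D2 was below B6 (log2 fold change -1.54, adjusted p 4.35e-14). Col5a1 and Col5a2 encode the common chains of type V collagen, which starts fibrils of type I. Col5a1 (ENSMUSG00000026837, chromosome 2, 27886425 to 28039514) had 1031, 947 and 963 CPM in B6, 1811, 1714 and 1510.5 in D2, 339.5, 349 and 338 in B6-13D2 and 907, 864 and 866 in D2-13B6. Col5a2 (ENSMUSG00000026042, chromosome 1, 45374321 to 45503282) had 800.2, 745 and 777 CPM in B6, 1263, 1243 and 1129 in D2, 228, 231 and 234 in B6-13D2 and 580, 578 and 553 in D2-13B6. Both had the common order without overlap of the groups, and in B6-13D2 they stood at 20.4% and 19.1% of the D2 mean. The log2 fold changes of Col5a1 were 0.78 (SE 0.0513) for D2 relative to B6, -1.52 (SE 0.0526) for B6-13D2 relative to B6 and -0.93 (SE 0.0513) for D2-13B6 relative to D2, with adjusted p of 6.87e-10, 5.37e-14 and 5.41e-11. Those of Col5a2 were 0.65 (SE 0.0411) for D2 relative to B6, -1.74 (SE 0.0427) for B6-13D2 relative to B6 and -1.09 (SE 0.0413) for D2-13B6 relative to D2, with adjusted p of 4.11e-10, 6.74e-16 and 5.49e-13.

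Col5a3, another type V chain, did not follow Col5a1 and Col5a2. Col5a3 (ENSMUSG00000004098, chromosome 9, 20770050 to 20815067) had 29.7, 25.8 and 27.2 CPM in B6, 45.2, 42 and 39.4 in D2, 29.7, 28.4 and 27 in B6-13D2 and 50.8, 55.7 and 51.4 in D2-13B6. Its highest libraries were those of D2-13B6, followed by D2, and the B6 and B6-13D2 libraries overlapped. It was higher in D2 than in B6 (log2 fold change 0.61, SE 0.0638, adjusted p 2.23e-07) and higher in D2-13B6 than in D2 (log2 fold change 0.32, SE 0.0581, adjusted p 0.000135), and it did not pass the test in B6-13D2 against B6 (log2 fold change 0.04, SE 0.0659, adjusted p 0.614). The ratio of Col5a3 to Col5a1 counts was 0.0245 to 0.0261 in D2, 0.0273 to 0.0288 in B6, 0.0561 to 0.0645 in D2-13B6 and 0.0799 to 0.0875 in B6-13D2. In the contrast of congenic with parental lines Col5a3 was the only fibrillar gene called higher (log2 difference 0.18, adjusted p 0.00157), and 9 of the 11 were called lower.

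The cartilage chains Col2a1 and Col11a1 were expressed at lower levels, with D2 and B6-13D2 again as the extremes. Col2a1 (ENSMUSG00000022483, chromosome 15, 97975602 to 98004695), the chain of type II collagen, had 32.7, 28.7 and 29.8 CPM in B6, 48.9, 46.3 and 43.7 in D2, 14.3, 12 and 12.9 in B6-13D2 and 25.1, 23.2 and 24.7 in D2-13B6. Col11a1 (ENSMUSG00000027966, chromosome 3, 114030540 to 114220718), a chain of type XI collagen that sits inside cartilage fibrils, had 55, 56 and 57 CPM in B6, 91.5, 83.4 and 79.8 in D2, 17.3, 17.6 and 18.3 in B6-13D2 and 40.1, 39 and 36.9 in D2-13B6. Both had the common order with every neighbouring pair called and no overlap of the groups. In B6-13D2 Col2a1 stood at 28.2% of its D2 mean, the highest such value among the 16 genes with the common order, and Col11a1 at 20.9%. Col27a1 (ENSMUSG00000045672, chromosome 4, 63214004 to 63334991), the chain of type XXVII collagen, had 25.7, 21.1 and 23.7 CPM in B6, 42.3, 35.6 and 32.5 in D2, 9.62, 11.4 and 10.8 in B6-13D2 and 25.6, 27.1 and 25 in D2-13B6. Its D2-13B6 and B6 libraries overlapped, and that pair was not called (log2 fold change 0.14, SE 0.088, adjusted p 0.17). It was lower in B6-13D2 than in B6 by -1.14 on the log2 scale (SE 0.1, adjusted p 1.97e-08). The remaining fibrillar genes, Col11a2 and Col24a1, had means of 1.78 and 0.431 CPM over the 12 libraries. Col11a2 was not called in D2 against B6 (log2 fold change -0.28, adjusted p 0.214) and was lower in B6-13D2 than in B6 (log2 fold change -1.30, SE 0.204, adjusted p 2.64e-05). Col24a1 had 2 to 27 counts per library, highest on average in D2 and lowest in B6-13D2.

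**Figure D3:**
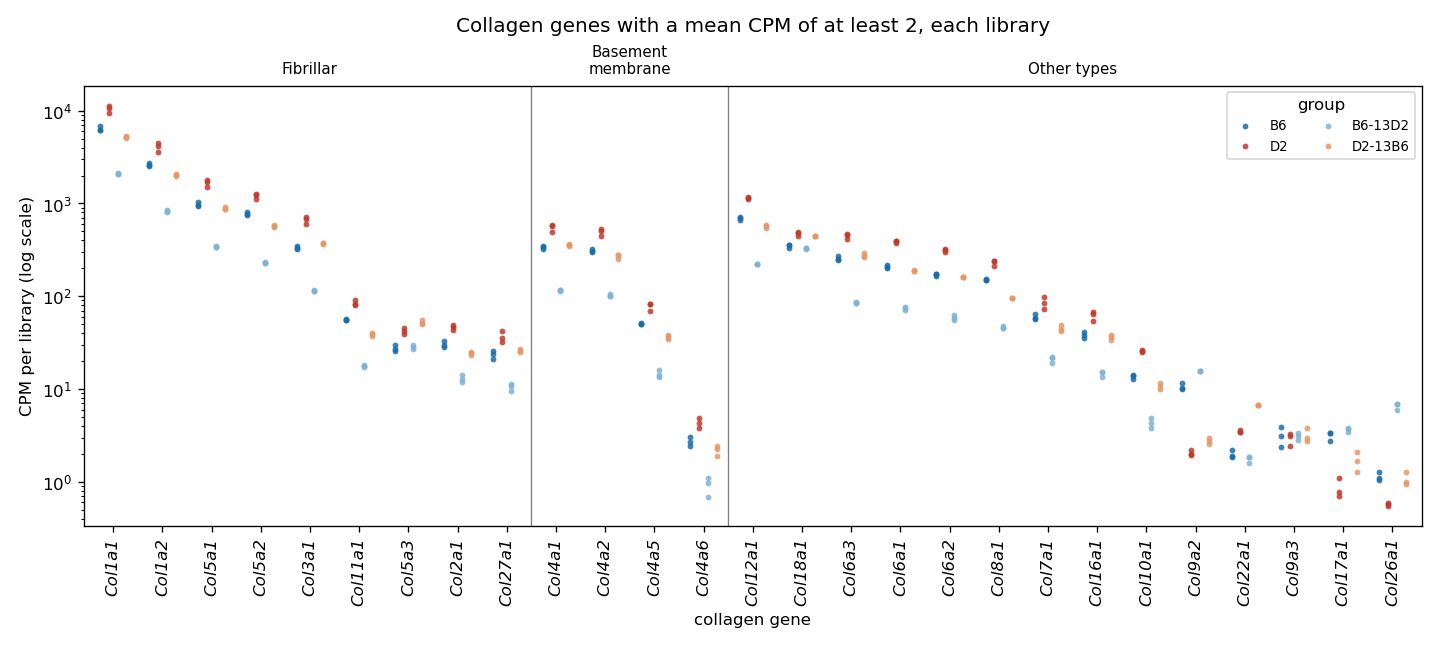
CPM in each of the 12 libraries (log axis) for the 27 collagen genes with a mean of at least 2 CPM, by structural class, with 3 points per group. Col1a1 spans 2063 to 11311 CPM, D2 points are the highest and B6-13D2 points the lowest for most genes, and Col9a2, Col17a1 and Col26a1 are lowest in D2.

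The promoters of Col5a1, Col11a1 and Col5a3 are shown because the first 2 genes had the common order and Col5a3, a chain of the same family, did not. Each is the 250 bases before the gene's start in RefSeq (GRCm38.p6), read 5′ to 3′ on the strand of the gene, and none of them holds exon bases of the annotation. Capitals mark a CCAAT box, the letters CCAAT, and a GC box, the letters GGGCGG, on either strand, so that a match on the other strand appears as its reverse complement. The Col5a1 window is chr2:27886175-27886424 on the plus strand, the Col11a1 window chr3:114030290-114030539 on the plus strand, and the Col5a3 window chr9:20815068-20815317 on the minus strand.
Col5a1: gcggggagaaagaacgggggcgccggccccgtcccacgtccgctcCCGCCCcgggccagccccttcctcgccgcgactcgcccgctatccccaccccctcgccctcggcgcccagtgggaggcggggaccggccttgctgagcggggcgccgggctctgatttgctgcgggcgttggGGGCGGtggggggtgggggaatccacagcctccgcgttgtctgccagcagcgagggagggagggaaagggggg
Col11a1: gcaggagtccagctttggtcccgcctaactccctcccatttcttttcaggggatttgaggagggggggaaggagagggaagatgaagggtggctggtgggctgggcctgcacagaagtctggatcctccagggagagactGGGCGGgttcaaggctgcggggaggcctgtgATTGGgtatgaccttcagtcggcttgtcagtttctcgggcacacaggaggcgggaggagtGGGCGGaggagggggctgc
Col5a3: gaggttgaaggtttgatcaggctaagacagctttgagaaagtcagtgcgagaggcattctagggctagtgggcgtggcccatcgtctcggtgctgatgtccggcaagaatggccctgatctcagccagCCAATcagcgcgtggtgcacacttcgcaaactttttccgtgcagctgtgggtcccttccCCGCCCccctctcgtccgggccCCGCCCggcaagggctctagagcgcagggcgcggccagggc
All 3 windows hold 2 GC boxes. Col11a1 and Col5a3 hold 1 CCAAT each and Col5a1 holds 0, and none holds TATAAA. Windows were found for 35 of the 44 genes, 38 windows in all. Of these 22 hold GGGCGG, 13 hold CCAAT and 5 hold TATAAA, searched on both strands, against 32.7%, 33.8% and 12.4% of all 32851 RefSeq windows of that length.

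Type IV collagen is the network former of basement membranes, and the genes of its main chains, Col4a1 and Col4a2, were highest in D2 and lowest in B6-13D2, with the common order in Col4a2 only. Col4a1 (ENSMUSG00000031502, chromosome 8, 11198423 to 11312826) had 352, 323 and 338 CPM in B6, 585, 569.7 and 497 in D2, 117, 118 and 114 in B6-13D2 and 362, 361 and 352 in D2-13B6. Col4a2 (ENSMUSG00000031503, chromosome 8, 11312805 to 11449287) had 319.6, 297 and 306 CPM in B6, 525, 501 and 450.2 in D2, 99.9, 106 and 101 in B6-13D2 and 276, 280.3 and 255 in D2-13B6. D2 libraries were the highest and B6-13D2 libraries the lowest for both. In D2-13B6 the chains differed in their place: Col4a2 lay below B6 (log2 fold change -0.19, SE 0.0512, adjusted p 0.00478), and Col4a1 was not called in that pair (0.09, SE 0.0489, adjusted p 0.138). The log2 fold changes of Col4a1 were 0.71 (SE 0.049) for D2 relative to B6, -1.54 (SE 0.0514) for B6-13D2 relative to B6 and -0.62 (SE 0.0486) for D2-13B6 relative to D2, with adjusted p of 1.3e-09, 3.24e-14 and 5.37e-09. Those of Col4a2 were 0.68 (SE 0.0511) for D2 relative to B6, -1.59 (SE 0.0539) for B6-13D2 relative to B6 and -0.86 (SE 0.051) for D2-13B6 relative to D2, with adjusted p of 3.69e-09, 3.89e-14 and 1.29e-10. The genes lie head to head on chromosome 8 on opposite strands, with starts 21 bases apart, so reads at the shared end are uncertain where strand was not used in counting. The ratio of Col4a1 to Col4a2 was 1.09 to 1.17 in B6, D2 and B6-13D2 and 1.29 to 1.38 in D2-13B6.

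Col4a5 and Col4a6 encode chains of another type IV network, known from kidney and smooth muscle, and lie head to head on the X chromosome with starts 1309 bases apart. Col4a5 (ENSMUSG00000031274, chromosome X, 141475385 to 141689234) had 49.6, 52.1 and 50.5 CPM in B6, 83.4, 82.1 and 68.8 in D2, 14.2, 15.9 and 13.5 in B6-13D2 and 38.4, 36.1 and 34.5 in D2-13B6. Col4a6 (ENSMUSG00000031273, chromosome X, 141165403 to 141474076) had 3.03, 2.43 and 2.66 CPM in B6, 4.87, 4.25 and 3.82 in D2, 1.11, 0.973 and 0.679 in B6-13D2 and 2.25, 1.88 and 2.45 in D2-13B6. Col4a5 had the common order with no overlap of groups, and at 18.6% of its D2 mean it was the lowest in B6-13D2 of the 4 type IV genes above 2 CPM. Col4a6 had the same order of means, but D2-13B6 and B6 were not distinguished (adjusted p 0.144). The log2 fold changes of Col4a5 were 0.63 (SE 0.0657) for D2 relative to B6, -1.80 (SE 0.0777) for B6-13D2 relative to B6 and -1.11 (SE 0.0656) for D2-13B6 relative to D2, with adjusted p of 2.48e-07, 1.16e-12 and 1.38e-10. Scaled by exon length, Col4a5 had a mean level of 6.69 CPM per kilobase and Col4a6 0.318. The glomerular chains Col4a3 and Col4a4 had 2 to 20 counts per library. Col4a3 was called in B6-13D2 against B6 (log2 fold change -2.16, adjusted p 0.00479).

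Type VI collagen forms beaded filaments close to the cell surface, and its 3 classical chains moved with types I and V. Col6a1 (ENSMUSG00000001119, chromosome 10, 76708792 to 76726168) had 215, 209 and 203 CPM in B6, 398, 396 and 374 in D2, 74.9, 76.9 and 71.7 in B6-13D2 and 189, 191 and 188 in D2-13B6. Col6a2 (ENSMUSG00000020241, chromosome 10, 76595762 to 76623630) had 174, 173 and 164 CPM in B6, 324, 316 and 299 in D2, 55.2, 62.8 and 57.7 in B6-13D2 and 162, 159.9 and 161 in D2-13B6. Col6a3 (ENSMUSG00000048126, chromosome 1, 90765923 to 90843971) had 269, 254 and 243 CPM in B6, 474, 453 and 416 in D2, 84.4, 87 and 84.4 in B6-13D2 and 292, 273 and 264 in D2-13B6. In each the D2 libraries stood above all others and the B6-13D2 libraries below all others. D2-13B6 lay below B6 for Col6a1 (log2 fold change -0.14, adjusted p 0.0025) and was not called against B6 for Col6a2 (-0.08, adjusted p 0.123) or Col6a3 (0.11, adjusted p 0.0536). The log2 fold changes of Col6a1 were 0.90 (SE 0.0361) for D2 relative to B6, -1.49 (SE 0.0384) for B6-13D2 relative to B6 and -1.04 (SE 0.0359) for D2-13B6 relative to D2, with adjusted p of 8.5e-13, 1.32e-15 and 2.03e-13. The ratio of Col6a1 to Col6a2 was 1.17 to 1.36 over the 12 libraries. The newer chains had few counts. Col6a5 had 3, 3 and 3 counts in the B6 libraries, 34, 39 and 14 in D2, 2, 2 and 0 in B6-13D2 and 91, 78 and 85 in D2-13B6. Its highest group was D2-13B6, which was called against D2 (adjusted p 0.000667). Col6a4 had 4 to 59 counts per library, also highest in D2-13B6.

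Fibril-associated chains split into those with the common order and those without. Col12a1 (ENSMUSG00000032332, chromosome 9, 79598991 to 79718831), which coats type I fibrils, had 722, 703 and 662 CPM in B6, 1179, 1140.2 and 1126 in D2, 221, 220 and 225 in B6-13D2 and 586, 578 and 546 in D2-13B6, with no overlap of groups. Its log2 fold changes were 0.72 (SE 0.0373) for D2 relative to B6, -1.65 (SE 0.0386) for B6-13D2 relative to B6 and -1.01 (SE 0.0374) for D2-13B6 relative to D2, with adjusted p of 2.63e-11, 4.63e-16 and 4.01e-13. Col16a1 (ENSMUSG00000040690, chromosome 4, 130047840 to 130099283) had 38, 35.3 and 41.1 CPM in B6, 68.4, 64.1 and 54.5 in D2, 13.5, 15.4 and 15.1 in B6-13D2 and 38.2, 36.7 and 33.8 in D2-13B6. In Col16a1 the D2-13B6 and B6 libraries overlapped and that pair was not called (adjusted p 0.453). Of the type IX genes, whose product coats cartilage fibrils, Col9a2 went another way and Col9a3 passed none of the 3 tests. Col9a2 (ENSMUSG00000028626, chromosome 4, 121039385 to 121055322) had 11.5, 10.2 and 10.1 CPM in B6, 1.92, 1.97 and 2.19 in D2, 15.5, 15.5 and 15.5 in B6-13D2 and 2.77, 2.57 and 2.93 in D2-13B6. Col9a2 was highest in B6-13D2 and lowest in D2, and the groups did not overlap. It was lower in D2 than in B6 (log2 fold change -2.39, SE 0.103, adjusted p 2.05e-12) and higher in B6-13D2 than in B6 (log2 fold change 0.55, SE 0.0771, adjusted p 7.85e-06). Col9a3 (ENSMUSG00000027570, chromosome 2, 180597790 to 180622189) had 3.87, 2.35 and 3.13 CPM in B6, 2.42, 3.14 and 3.28 in D2, 3.12, 3.36 and 2.83 in B6-13D2 and 3.76, 2.99 and 2.76 in D2-13B6, with overlapping groups and no call for D2 against B6, B6-13D2 against B6 or D2-13B6 against D2 (log2 fold changes -0.07, -0.00 and 0.11). Expected counts of Col9a3 lay more than 1e-06 from a whole number in 10 libraries, so reads were shared with other genes. Col9a3 also overlaps Tcfl5 on the opposite strand, so its counts are uncertain if strand was not used. Col22a1 (ENSMUSG00000079022, chromosome 15, 71795795 to 72034227), a chain found at tissue junctions, had 2.2, 1.85 and 1.89 CPM in B6, 3.58, 3.45 and 3.46 in D2, 1.87, 1.61 and 1.85 in B6-13D2 and 6.8, 6.67 and 6.8 in D2-13B6. It was highest in D2-13B6, 0.95 above D2 on the log2 scale (SE 0.11, adjusted p 8.43e-07), and not called in B6-13D2 against B6 (adjusted p 0.44). Col14a1 and Col20a1 had means of 1.36 and 0.935 CPM. Col20a1 was lower in D2 than in B6 (log2 fold change -1.20, adjusted p 0.00314).

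The short chain network genes and the anchoring fibril gene had the common order. Col8a1 (ENSMUSG00000068196, chromosome 16, 57624258 to 57754737), known from vessel walls and the cornea, had 150.2, 152 and 150.4 CPM in B6, 242, 237 and 214 in D2, 45.1, 45.6 and 47.9 in B6-13D2 and 96.7, 94.7 and 95.4 in D2-13B6. Col10a1 (ENSMUSG00000039462, chromosome 10, 34389981 to 34397085), a marker of hypertrophic cartilage, had 14.2, 12.8 and 13.8 CPM in B6, 25.2, 26 and 26.1 in D2, 4.85, 3.79 and 4.3 in B6-13D2 and 10.8, 11.6 and 9.97 in D2-13B6. Col7a1 (ENSMUSG00000025650, chromosome 9, 108953586 to 108984875), which anchors the epidermal basement membrane, had 65.1, 58 and 57.5 CPM in B6, 98.3, 83.7 and 73.5 in D2, 21.4, 22.3 and 19.3 in B6-13D2 and 48.5, 42.3 and 44.2 in D2-13B6. None of the 3 had overlapping groups. Col8a1 stood at 41.4% of its D2 mean in D2-13B6, the lowest of the 16 genes with that order, and Col10a1 at 16.7% in B6-13D2, also the lowest. Col8a2 had 5 to 31 counts per library. Col10a1 overlaps Nt5dc1 on the opposite strand, so its counts are uncertain if strand was not used, and Col7a1 holds the microRNA gene Mir711 on its own strand, where strand cannot separate the counts.

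Col18a1 stood apart among the genes with over 100 CPM because it varied little. It encodes a heparan sulfate proteoglycan of basement membranes whose cleaved end is endostatin. Col18a1 (ENSMUSG00000001435, chromosome 10, 77052178 to 77166548) had 354, 329 and 361 CPM in B6, 494, 476 and 443 in D2, 329.8, 334 and 325 in B6-13D2 and 445, 449 and 442 in D2-13B6. Col18a1 overlaps Gm7775 and Slc19a1 on the opposite strand, so its counts are uncertain if strand was not used. D2 and D2-13B6 were near each other, as were B6 and B6-13D2. It was higher in D2 than in B6 (log2 fold change 0.44, SE 0.041, adjusted p 5.83e-08), and it was not called in B6-13D2 against B6 (log2 fold change -0.08, SE 0.0411, adjusted p 0.12) or in D2-13B6 against D2 (log2 fold change -0.08, SE 0.0405, adjusted p 0.0937). Without B6 replicate 2 the B6-13D2 value was called, at -0.11, and the D2-13B6 value was called without D2 replicate 3, at -0.13, and with a filter at a mean CPM of at least 1, at -0.12. The ratio of Col18a1 to Col6a1 was 1.19 to 1.24 in D2, 1.58 to 1.78 in B6, 2.35 to 2.36 in D2-13B6 and 4.35 to 4.53 in B6-13D2. Its call in the contrast of congenic with parental lines (log2 difference -0.08, adjusted p 0.0228) was lost with RLE size factors, with DESeq2, without a filter and without any 1 of 3 libraries (B6 replicate 3, D2 replicate 1 and B6-13D2 replicate 3), where the log2 difference was -0.05 to -0.07. Of the other multiplexin, Col15a1, the mean was 0.602 CPM.

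Among the transmembrane and remaining chains Col26a1 rose in B6-13D2, the only collagen gene besides Col9a2 that was called higher there. Col17a1 (ENSMUSG00000025064, chromosome 19, 47646344 to 47692094), a hemidesmosome protein of epithelia, had 3.38, 2.73 and 3.39 CPM in B6, 0.708, 1.11 and 0.774 in D2, 3.46, 3.79 and 3.66 in B6-13D2 and 1.29, 2.08 and 1.67 in D2-13B6. It was lower in D2 than in B6 (log2 fold change -1.82, SE 0.218, adjusted p 1.23e-06), and the B6-13D2 libraries lay just above those of B6 without passing the test (log2 fold change 0.20, adjusted p 0.353). Col26a1 (ENSMUSG00000004415, chromosome 5, 136741759 to 136883209), known from the developing testis and ovary, had 1.05, 1.09 and 1.29 CPM in B6, 0.583, 0.584 and 0.546 in D2, 6.89, 6.85 and 5.89 in B6-13D2 and 1.29, 0.941 and 0.987 in D2-13B6. Col26a1 in B6-13D2 was above every other library, and it was higher there than in B6 (log2 fold change 2.51, SE 0.167, adjusted p 4.64e-10), the largest rise of the 40 members in that comparison. It was lower in D2 than in B6 (log2 fold change -0.99, SE 0.23, adjusted p 0.00123). Col13a1, a transmembrane chain of the neuromuscular junction, had a mean of 1.42 CPM, with 1.63, 1.76 and 1.76 CPM in B6, 1.12, 0.723 and 1.37 in D2, 2.22, 1.88 and 2.42 in B6-13D2 and 0.713, 0.47 and 0.987 in D2-13B6. Col23a1 passed none of the 3 tests (adjusted p 0.168, 0.367 and 0.167), but without B6 replicate 1 it was called higher in D2 than in B6, at a log2 fold change of 0.95 in place of 0.54. Col28a1 had 3 to 22 counts per library.

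**Figure D4:**
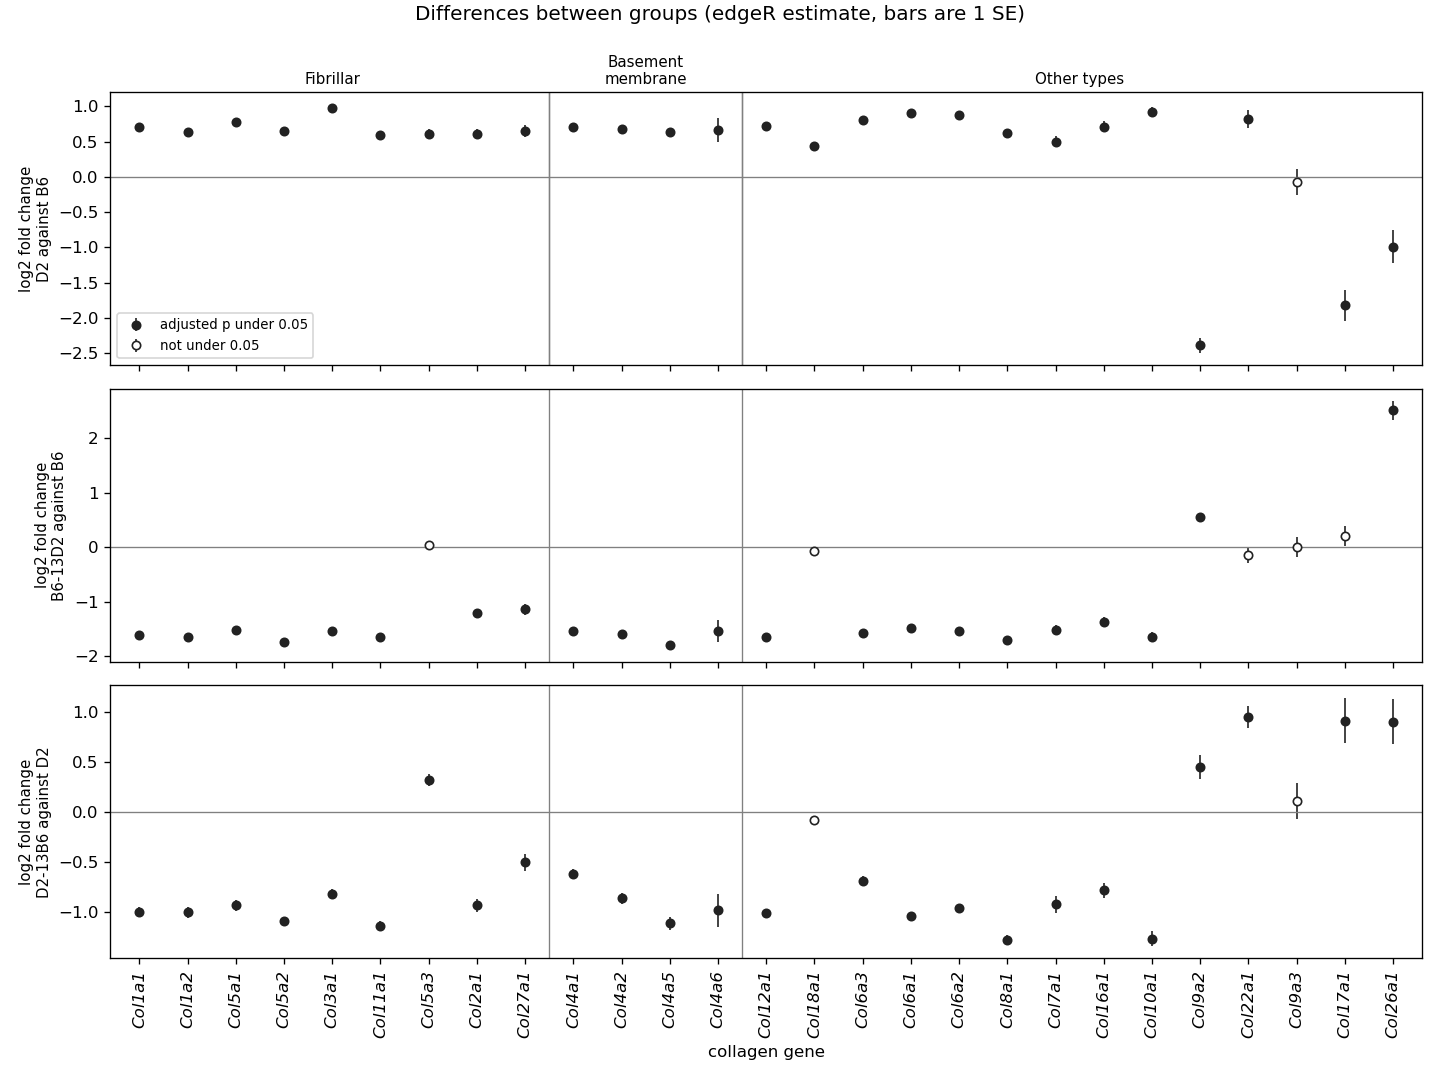
edgeR log2 fold changes of the 27 collagen genes with a mean of at least 2 CPM for D2 relative to B6, B6-13D2 relative to B6 and D2-13B6 relative to D2 (points; bars are 1 SE; filled points had an adjusted p under 0.05). Most fibrillar and type IV genes are above 0 in the first panel and below 0 in the others, and Col26a1 reaches 2.51 in B6-13D2 against B6.

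The genes that make and handle collagen were described from lists chosen beside the collagen genes. The crosslinking enzymes were higher in D2 and lower in both congenic lines: 6 of 6 were higher in D2 than in B6 (29.8% of all tested genes), 6 lower in B6-13D2 than in B6 (32.9%), and 6 lower in D2-13B6 than in D2 (29.7%), with medians of 0.59, -1.61 and -0.93 on the log2 scale, against 0.012, -0.035 and 0 over all tested genes. Lox, the lysyl oxidase, had 937 CPM ± 16.4 in B6, 1409 CPM ± 74.4 in D2, 298 CPM ± 3.29 in B6-13D2 and 794 CPM ± 18 in D2-13B6. Loxl2 had 364 CPM ± 7.26 in B6, 588 CPM ± 39.7 in D2, 132 CPM ± 3.82 in B6-13D2 and 335 CPM ± 8.78 in D2-13B6, and Loxl1 had 172 CPM ± 7.72 in B6, 260.4 CPM ± 25.2 in D2, 57.6 CPM ± 2.34 in B6-13D2 and 144 CPM ± 3.95 in D2-13B6. The falls of Lox, Loxl2 and Loxl1 in B6-13D2 against B6 were -1.65, -1.46 and -1.58 (adjusted p 3.93e-16, 9.29e-15 and 1.82e-13), and those of Pxdn, a peroxidase that crosslinks type IV collagen, and Loxl4 were -1.64 and -1.64 (adjusted p 2.59e-15 and 3.42e-12).

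Of the 19 genes for hydroxylation, glycosylation and folding in the endoplasmic reticulum, 16 were higher and 2 lower in D2 than in B6 (29.8% and 30.3% of all tested genes), 13 lower and 1 higher in B6-13D2 than in B6 (32.9% and 25.4%), and 16 lower and 0 higher in D2-13B6 than in D2 (29.7% and 27.6%). The median log2 fold changes were 0.37, -0.55 and -0.38, against 0.012, -0.035 and 0 over all tested genes. P4hb, the beta subunit of prolyl 4-hydroxylase and a general disulfide isomerase, had 833 CPM ± 22.2 in B6, 935 CPM ± 29.1 in D2, 632 CPM ± 13.7 in B6-13D2 and 845 CPM ± 8.23 in D2-13B6. Colgalt1, a collagen galactosyltransferase, had 185 CPM ± 6.06 in B6, 234 CPM ± 6.24 in D2, 183 CPM ± 1.41 in B6-13D2 and 204 CPM ± 5.84 in D2-13B6. Serpinh1, the collagen chaperone, had 597 CPM ± 8.49 in B6, 881 CPM ± 70.6 in D2, 261 CPM ± 6.32 in B6-13D2 and 461 CPM ± 6.7 in D2-13B6, and its log2 fold change in B6-13D2 against B6 was -1.19 (adjusted p 2.19e-13). Fkbp10, a prolyl isomerase, and P4ha3, a prolyl hydroxylase subunit, were also lower there, with a log2 fold change of -1.65 and -1.68 (adjusted p 1.15e-14 and 1.72e-11). P3h4, a partner of the lysyl hydroxylases, had -1.48 (adjusted p 6.8e-12). Of the export and propeptide genes 10 of 11 were tested, with 7 higher and 1 lower in D2 than in B6 (29.8% and 30.3% of all tested genes), 8 lower in B6-13D2 than in B6 (32.9%) and 8 lower in D2-13B6 than in D2 (29.7%). Bmp1, the procollagen C-proteinase, had 97.8 CPM ± 4.53 in B6, 159 CPM ± 10.3 in D2, 37.2 CPM ± 2.71 in B6-13D2 and 97.6 CPM ± 2.62 in D2-13B6. Sec23a, a coat protein of vesicles that leave the endoplasmic reticulum, had 159 CPM ± 3.86 in B6, 152 CPM ± 4.15 in D2, 125 CPM ± 1.59 in B6-13D2 and 141 CPM ± 1.76 in D2-13B6. Pcolce, the enhancer of the C-proteinase, was lower in D2 than in B6 (log2 fold change -0.21, adjusted p 0.000556). Tll1, a proteinase related to Bmp1, Adamts3, a procollagen N-proteinase, and Sec24d, another coat protein, had log2 fold changes of -1.63, -1.27 and -1.21 for B6-13D2 relative to B6 (adjusted p 1.55e-11, 0.0179 and 1.27e-13).

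Of the collagen receptors 9 of 10 were tested; 6 were higher in D2 than in B6 (29.8% of all tested genes), 7 lower and 1 higher in B6-13D2 than in B6 (32.9% and 25.4%), and 6 lower and 1 higher in D2-13B6 than in D2 (29.7% and 27.6%). Itgb1, the integrin beta chain shared by the collagen-binding integrins, had 1555 CPM ± 11 in B6, 2149.9 CPM ± 70.7 in D2, 502 CPM ± 5.66 in B6-13D2 and 1092 CPM ± 18.2 in D2-13B6. Mrc2, an endocytic collagen receptor, had 95.2 CPM ± 3.49 in B6, 148 CPM ± 18.1 in D2, 31.6 CPM ± 1.02 in B6-13D2 and 72.6 CPM ± 4.79 in D2-13B6. Itga11, which binds type I collagen, had a log2 fold change of 1.18 for D2 relative to B6, -1.50 for B6-13D2 relative to B6 and -1.84 for D2-13B6 relative to D2. Ddr2, a receptor kinase for fibrillar collagen, was lower in B6-13D2 than in B6 by -1.94 (adjusted p 5.27e-15). Itga2 and Itga1, alpha chains of collagen-binding integrins, had log2 fold changes of -1.92 and -1.82 there (adjusted p 0.00449 and 5.57e-09). Both genes lie on chromosome 13, the chromosome of the segment, and whether they lie inside it was not examined. Itga2 was low, with a mean of 0.385 CPM and at most 22 counts in any library. Itga10, chosen after its values were seen, was higher in both congenic lines, 0.70 above B6 and 0.64 above D2 (adjusted p 6.45e-05 and 0.000196). The non-collagen partners of basement membranes were mixed: of 10, 5 were higher and 2 lower in D2 than in B6 (29.8% and 30.3% of all tested genes), 5 lower and 2 higher in B6-13D2 than in B6 (32.9% and 25.4%), and 7 lower and 2 higher in D2-13B6 than in D2 (29.7% and 27.6%). Lamc1, the gamma chain of most laminins, had 844 CPM ± 16.8 in B6, 542 CPM ± 14.4 in D2, 886 CPM ± 16.9 in B6-13D2 and 509.8 CPM ± 11.2 in D2-13B6, an order unlike that of Col4a1. Lamb1 was lower in B6-13D2 than in B6 by -1.22 (adjusted p 3.09e-15). Sparc, a collagen-binding matrix protein, had 1690.2 CPM ± 34.3 in B6, 2196 CPM ± 84.4 in D2, 915 CPM ± 28.2 in B6-13D2 and 1361 CPM ± 6.56 in D2-13B6. Hspg2 (perlecan) had 1312 CPM ± 37 in B6, 1591 CPM ± 84.3 in D2, 929 CPM ± 20.8 in B6-13D2 and 1233 CPM ± 36.4 in D2-13B6.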

How the data were processed

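RNA-seq of 12 mouse embryonic stem cell libraries was analysed from the table of expected counts per Ensembl gene that the authors deposited. Per the file's own name it comes from EMASE, which divides reads that map to several places. Per the submitters' processing notes, Bowtie 1.0.0, edgeR 3.34.1 and mm10 were used. Whether counting used the strand is not given in the sources used here. All 12 columns mapped to a library by their names, and 0 were left out.

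The expected counts were rounded. Genes were kept by filterByExpr of edgeR 4.0.16 (R 4.3.3; 10 counts at least, by group), scaled by TMM and tested by a quasi-likelihood fit of 4 group means to all 12 libraries, with Benjamini-Hochberg adjustment at 0.05. The common dispersion was 0.001834. Each SE was computed from the log2 fold change and the F statistic of its test. The fit was also run on simulated counts with known changes in D2, the outcome of which is not given here. Positions and overlaps come from GENCODE M21 (GRCm38) and promoters from RefSeq (GRCm38.p6); 42462 of 43346 IDs were found in GENCODE M21. Of the 44 collagen genes 28 overlap another annotated gene, 18 of them on the opposite strand, and these are uncertain.

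The members, gene lists and tests were chosen with earlier results of these data known. Every collagen gene is accounted for; those with a mean of at least 2 CPM are given per library and the others by range, counts or test, of which the ones named with values were chosen after these were seen. Named were, of each pathway list, the 3 with the highest mean CPM and up to 4 called genes that moved by at least 1 on the log2 scale. Marker genes named beyond the 3 with the highest mean CPM of their list, such as Foxa2 and Cdh5, were chosen after their values were seen. The replicate numbers come from the titles; after subtracting group means, libraries with equal numbers correlated by -0.0108 on average (18 pairs, from -0.125 to 0.0683), so they were not taken as pairs. The alternatives were DESeq2 1.42.0, RLE size factors, other filters, a fold change minimum, the replicate block, fewer libraries and leaving out each library.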

Additional observations from a re-analysis of the deposited data

Results flagged for a closer look

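In 31 of 40 collagen genes the contrast of the congenic with the parental lines was called. The test is the difference between the congenic and the parental lines, given here as the mean of both congenic lines minus the mean of both parental lines on the log2 scale, at an edgeR adjusted p under 0.05; 64.5% of all tested genes passed it. By the design a segment effect that differs between the backgrounds cannot be told apart here from anything that all congenic libraries share. Each strain is a single cell line per the protocol, so traits of one line cannot be told apart from it either.

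Of the fibrillar genes, 9 were called lower in the congenic lines. Their differences were Col1a1 -1.31, Col2a1 -1.07, Col11a2 -0.74, Col5a2 -1.42, Col3a1 -1.18, Col5a1 -1.23, Col11a1 -1.40, Col1a2 -1.33 and Col27a1 -0.82. The type IV genes called lower were Col4a6 -1.26, Col4a5 -1.45, Col4a1 -1.08, Col4a2 -1.23 and Col4a3 -1.66. Among the other types those called lower were Col6a1 -1.26, Col18a1 -0.08, Col6a2 -1.25, Col14a1 -0.61, Col7a1 -1.22 and Col12a1 -1.33. Also called lower were Col10a1 -1.46, Col16a1 -1.08, Col6a3 -1.14, Col8a2 -1.04, Col8a1 -1.49 and Col28a1 -1.45. Col4a3, Col8a2 and Col28a1 did not reach the filter's minimum in all groups, with 2 to 20, 5 to 31 and 3 to 22 counts per library. Of the 31 genes that reached it in all groups 23 were called lower and 5 higher, against 36.1% and 34.3% of all such genes. The genes called higher were Col5a3 0.18, Col26a1 1.71, Col17a1 0.56, Col9a2 0.50 and Col22a1 0.40. The value of Col18a1 lost its call in 6 alternative settings, beside the rule that asks for a log2 difference of at least 1, and that of Col8a2 lost its call without B6 replicate 3, at -0.73.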

How the results depend on the processing

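No collagen gene reversed its direction in a called comparison under any alternative run. The counts of collagen genes called (32 for D2 relative to B6, 29 for B6-13D2 relative to B6, 29 for D2-13B6 relative to D2 and 31 for the congenic relative to the parental lines) stayed within 1.5 times of these values, except that the minimum absolute log2 fold change of 1 left 7 for D2 and 12 for D2-13B6, as fewer genes reach that size. In the main run 60.0%, 58.3%, 57.3% and 64.5% of all tested genes were called, and at that minimum 11.3% for D2 and 8.96% for D2-13B6. DESeq2 called 29, 26, 26 and 30, against 56.0%, 56.5%, 53.3% and 62.2% of all genes. Leaving out each library in turn gave 28 to 33, 25 to 29, 26 to 29 and 30 to 32. The shares of all genes were then 53.7% to 59.4%, 53.0% to 58.8%, 50.7% to 56.7% and 61.0% to 63.3%. Without B6 replicate 3, which has another line name, 30, 27, 29 and 30 were called (54.3%, 54.7%, 56.7% and 61.9% of all genes). The collagen genes with the common order and each neighbour called numbered 13, against 5.73% of all genes. They numbered 12 to 13 without any 1 library, against 4.87% to 5.83%. This check was chosen after seeing the data.

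With the replicate number as a block, 31, 28, 29 and 31 collagen genes were called, against 59.3%, 57.8%, 56.4% and 63.9% of all genes. The common order with each neighbour called was found in 13, against 5.7% of all genes. The numbers show no pairing, so this is no test of matched cultures.

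Of the values of single collagen genes under the alternatives other than the fold change minimum, 2697 kept their side of the threshold, 76 lost a call and 14 gained one. In these 4 comparisons the genes that lost or gained a call, other than Col18a1, had a mean under 2 CPM; the cause was not tested.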
